A study of Rattus norvegicus with 36 samples.

Results

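Liver RNA of rats given hexachlorocyclopentadienyl-dibromocyclooctane (HCDBCO) at 54.1 mg/kg per day was compared with liver RNA of rats given the vehicle alone. The comparison held 12 of the 36 samples of the series, the 6 whose titles carry the 54.1 dose and the 6 whose titles carry the vehicle, and it covered all 31042 probe sets of a rat Affymetrix expression array that are not array controls. Both groups were male Harlan Sprague Dawley rats, 7 weeks old when the study began, on NTP-2000 diet and tap water. The 54.1 mg/kg group received HCDBCO in corn oil by oral gavage on 5 consecutive days, in 5 ml per kg body weight, and the vehicle group received corn oil in that volume on those days. The left liver lobe was taken 1 day after the last dose. The other 24 samples, 6 at each of the 3 lower doses and 6 at 541 mg/kg, entered the estimate of the spread between samples. Since the labels do not tie a sample to an animal, a p-value speaks only of the scatter among the samples, and 6 arrays in each group limit the precision.

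HCDBCO is a flame retardant that carries both chlorine and bromine. Many halogenated lipophilic chemicals act on the liver through the nuclear receptors CAR and PXR, which bind DNA as partners of RXR and turn on genes for cytochromes P450, conjugating enzymes and export pumps. Cytochromes P450 oxidise foreign compounds, glucuronosyltransferases and glutathione transferases attach a water-soluble group to them, and ABC transporters carry the products out of the hepatocyte. NRF2, a transcription factor set free by electrophiles, controls an overlapping set of detoxification genes and enzymes that supply NADPH.

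The values were log2 values from RMA, a method that normalises between arrays and gives 1 value for each probe set and array. Group means are given with the standard deviation (n = 6), and differences, 54.1 mg/kg minus vehicle, with the standard error of limma. Every adjusted p is from limma, two-sided, with the Benjamini-Hochberg adjustment across the 31042 probe sets, and a probe set passed the test at a false discovery rate (FDR) of 5%. Hepatocyte genes were among the brightest on every array: the mean level of the 13 measured hepatocyte markers, such as those for albumin, transferrin and fibrinogen, was 13.10 to 13.19 in the 54.1 mg/kg samples and 13.17 to 13.32 in the vehicle samples. None of these markers passed the test. In bulk tissue, fewer cells of a type and less RNA per cell cannot be told apart.

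The array of 54.1 mg/kg replicate 5 stood apart in its distribution. Its lower quartile was 3.79 against 3.62 to 3.72 in the 35 other arrays of the series, and its upper quartile was 6.94 against 7.03 to 7.13. Relative to the mean of the 5 other 54.1 mg/kg samples, its median shift was 0.11 for the dimmest of 3 equal classes of probe sets, 0.08 for the middle class and -0.14 for the brightest. Dim probe sets therefore read higher and bright ones lower on this array than on the others of its group. The log2 gap between the 3′ and 5′ actin controls, which widens as RNA degrades, was 1.08 on this array, within the 0.97 to 1.29 of the 5 other 54.1 mg/kg arrays. Across the groups that gap was 1.14 ± 0.11 at 54.1 mg/kg and 1.13 ± 0.08 in vehicle, a difference of 0.01 (two-sided exact permutation test, p = 0.803). Results are given with and without this array.

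**Figure D1:**
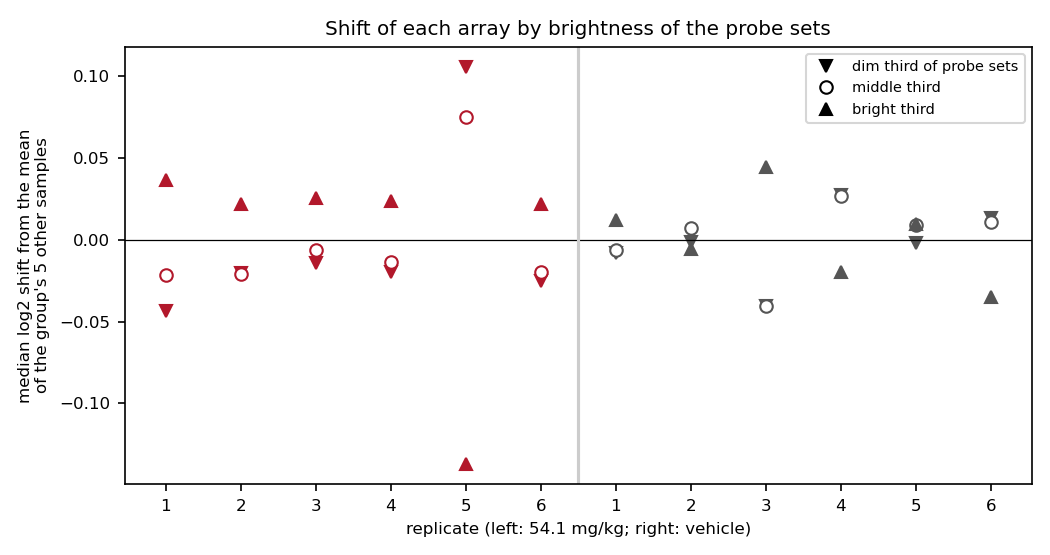
Median log2 shift of each of the 12 arrays from the mean of its group's 5 other samples, for the dim, middle and bright class of all probe sets. Red points on the left are the 54.1 mg/kg samples and grey points on the right the vehicle samples; replicate 5 at 54.1 mg/kg has the widest spread, 0.11 for the dim and -0.14 for the bright class.

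Few probe sets differed between the 54.1 mg/kg and vehicle livers. By size, the rises of Abcc3 and of the probe set shared by Cyp2b1 and Cyp2b2 were the largest, and the smallest p-values belonged to a fall of Hexim1 and a rise of Ugt2b1. Of 31042 probe sets, 23 passed the test (0.0741%), 13 higher (0.0419%) and 10 lower (0.0322%) than in vehicle. They covered 19 named genes, 1 probe set annotated to several genes and 1 without a listed gene. Only 5 of those higher and 2 of those lower differed by at least 1.5-fold. The median difference over all 14217 named genes was 0.01 on the log2 scale, and 53.6% of them had the higher mean at 54.1 mg/kg.

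Without replicate 5, 35 probe sets passed (0.113%), 23 higher (0.0741%) and 12 lower (0.0387%). The 19 shared by both analyses were 82.6% of the 23 and 54.3% of the 35. The count also depended on other samples: it was 15 without 54.1 mg/kg replicate 1, 15 without replicate 2, 15 without replicate 3 and 7 without replicate 4. Among vehicle samples, leaving out replicate 1 gave 5, replicate 2 gave 36, replicate 5 gave 15 and replicate 6 gave 14. With each array centred on its own median, 17 probe sets passed, of which 7 were higher and 10 lower. Of the probe sets that passed with all 12 samples, Hexim1, Ugt2b1 and Gpr15lg did so whichever of the 12 was left out. The call of Gpr15lg was nonetheless lost in a fit of the 12 samples alone (adjusted p = 0.082).

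The groups did not overlap in 10 of the 13 probe sets that were higher and in 10 of the 10 that were lower. These probe sets were chosen by the values of the same samples, so their separation largely follows from that choice and is a description only. Over all probe sets the samples of the 2 groups did not overlap in 0.596%, 0.226% with the 54.1 mg/kg samples above vehicle and 0.37% with them below, and without replicate 5 in 1.32%. An unadjusted p under 0.05 was reached by 4.52% of probe sets as higher and 4.68% as lower at 54.1 mg/kg, and without replicate 5 by 4.24% and 4.0%.

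**Figure D2:**
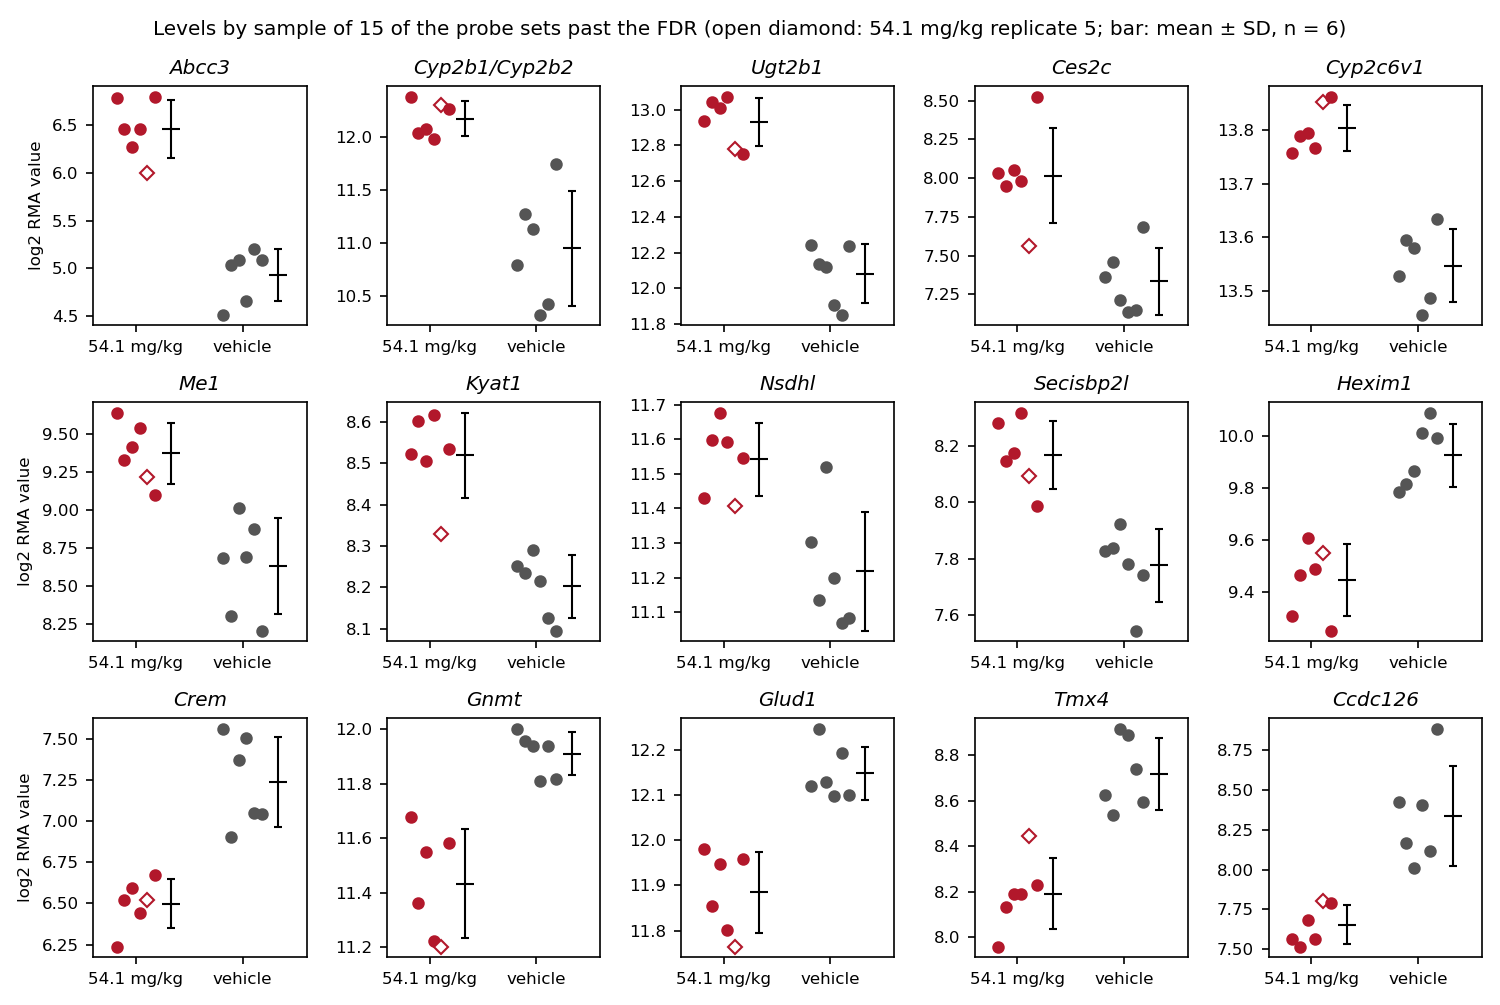
Log2 RMA values by sample for 15 of the 23 probe sets that passed the test, 54.1 mg/kg in red and vehicle in grey, with group means and SD as bars (n = 6); the open diamond is 54.1 mg/kg replicate 5. The panel for Me1 shows 1370870_at, that for Crem 1393550_at and that for Cyp2b1/Cyp2b2 the shared probe set 1371076_at; only Ces2c and Nsdhl have groups that overlap.

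Among phase I enzymes, the probe set 1371076_at rose 2.33-fold. It is annotated to both Cyp2b1 and Cyp2b2, the phenobarbital-inducible P450 genes of rat liver, so that neither gene has a value of its own, and it was singled out after its values were seen. It read 12.38, 12.04, 12.08, 11.98, 12.30 and 12.26 in the 54.1 mg/kg samples, against 10.79, 11.28, 11.14, 10.33, 10.42 and 11.75 in vehicle. All treated samples lay above all vehicle samples, and the vehicle samples were the more scattered (SD 0.16 at 54.1 mg/kg and 0.54 in vehicle). The difference was 1.22 ± 0.22 on the log2 scale (adjusted p = 0.0173) and 1.19 without replicate 5 (adjusted p = 0.0234). Without vehicle replicate 1 the call was lost (adjusted p = 0.0513).

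Cyp2c6v1, a P450 of the CYP2C family, rose by a small amount at a high level. Its lowest, median and highest values were 13.76, 13.79 and 13.86 at 54.1 mg/kg, against 13.46, 13.55 and 13.63 in vehicle. The groups were narrow and apart, and the difference of 0.26 ± 0.05 passed the test (adjusted p = 0.0173). The call was lost without vehicle replicate 1 (adjusted p = 0.0513) and in a fit of the 12 samples alone (adjusted p = 0.0875). Ces2c, a carboxylesterase that cleaves esters and amides, rose 1.61-fold (difference 0.68 ± 0.14, adjusted p = 0.0323). Its values were 8.03, 7.95, 8.05, 7.98, 7.56 and 8.52 at 54.1 mg/kg, against 7.36, 7.46, 7.21, 7.14, 7.15 and 7.69 in vehicle. Replicate 5 was the one treated sample inside the vehicle range. Without it the groups were apart, with a difference of 0.77 ± 0.14 (adjusted p = 0.0166). The call was lost, however, without any 1 of 54.1 mg/kg replicates 1, 2, 3, 4 or 6 or vehicle replicates 1, 3, 4 or 5, in a fit of the 12 samples alone (adjusted p = 0.0519) and with arrays centred on their medians (adjusted p = 0.0512).

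Conjugation and export were represented by Ugt2b1 and Abcc3. Ugt2b1, a glucuronosyltransferase, rose 1.80-fold and had one of the smallest p-values. It read 12.94, 13.04, 13.01, 13.07, 12.78 and 12.75 in the 54.1 mg/kg samples, against 12.25, 12.14, 12.12, 11.91, 11.85 and 12.24 in vehicle. The groups were apart by a wide margin relative to their spread, and the difference was 0.85 ± 0.13 (adjusted p = 0.00219) and 0.88 without replicate 5 (adjusted p = 0.00377).

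Abcc3, which encodes the basolateral pump MRP3 for glucuronides and other organic anions, showed the largest fold change among the 23, at 2.88-fold. It read 6.78, 6.45, 6.27, 6.46, 6.00 and 6.79 at 54.1 mg/kg, against 4.52, 5.03, 5.09, 4.66, 5.20 and 5.09 in vehicle. The lowest treated sample, replicate 5, still lay above the highest vehicle sample. The difference was 1.53 ± 0.28 (adjusted p = 0.0173; 0.0513 without vehicle replicate 1) and 1.62 ± 0.29 without replicate 5 (adjusted p = 0.0166).

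These genes headed the list of 24 measured CAR and PXR targets. Of the list, 4 passed the test as higher (Ugt2b1, Abcc3, Cyp2c6v1 and Ces2c) and none as lower. Over all 14217 named genes, with 1 probe set each, 17 passed in either direction (0.12%). The means were higher in 17 of the 24 and lower in 7, and the median difference was 0.20, against 0.01 over all genes. The mean level of the list was 10.35 to 10.56 in the 54.1 mg/kg samples and 10.06 to 10.23 in vehicle, so that the 2 groups were apart, with replicate 5 the lowest of the treated samples. That mean includes the 4 genes that passed, and the list was written with earlier results of these data known. The separation is a description only. Several other genes of the list or related to it did not pass. Cyp3a23-3a1, a CYP3A enzyme induced through PXR, differed by 0.38 ± 0.11 with groups that did not overlap (adjusted p = 0.197). Ephx1, the microsomal epoxide hydrolase, differed by 0.35 ± 0.10 (adjusted p = 0.216), and Aldh1a1, a retinaldehyde dehydrogenase, by 0.45 ± 0.14 (adjusted p = 0.256). In both, the treated samples lay above all vehicle samples. Cyp3a2 differed by 0.04 (adjusted p = 0.863), Cyp2b12 by -0.02 (adjusted p = 0.957), and the gene of CAR itself, Nr1i3, by -0.47 ± 0.24 (adjusted p = 0.554). Without vehicle replicate 4, its lowest vehicle sample at 6.96, the Nr1i3 difference was -0.72 (adjusted p = 0.199). The PXR gene Nr1i2 differed by -0.08 (adjusted p = 0.868).

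Among 23 measured NRF2 targets, 20 had the higher mean at 54.1 mg/kg, with a median difference of 0.17, and 1 passed the test. That gene was Me1, cytosolic malic enzyme, which makes NADPH while it turns malate into pyruvate. Its probe set 1370870_at read 9.64, 9.33, 9.42, 9.54, 9.21 and 9.10 at 54.1 mg/kg, against 8.69, 8.30, 9.02, 8.69, 8.87 and 8.21 in vehicle. The groups were apart, with a difference of 0.75 ± 0.13 (1.68-fold, adjusted p = 0.0173; 0.0561 without 54.1 mg/kg replicate 4). A second, brighter probe set, 1370067_at, rose by 0.52 ± 0.11 (adjusted p = 0.0381), with lowest, median and highest values of 9.54, 9.66 and 9.70 at 54.1 mg/kg, against 8.78, 9.21 and 9.54 in vehicle. Vehicle replicate 3 gave the highest vehicle value on both probe sets and reached the treated range on the second, whose call was lost without replicate 5 (difference 0.51, adjusted p = 0.0584) and without any other single sample except 54.1 mg/kg replicate 6 or vehicle replicate 3. It was also lost in a fit of the 12 samples alone (adjusted p = 0.0814) and with arrays centred on their medians (adjusted p = 0.0553). In the lists Me1 is counted by this brighter probe set, so without replicate 5 no member of the NRF2 or NADPH supply list passed. The probe set 1370870_at kept its call without replicate 5 (adjusted p = 0.0166). Me1 is known to respond to CAR and thyroid hormone as well as NRF2, and it also stands in the lists of thyroid hormone response and NADPH supply.

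No further NRF2 target passed in the fit of all 36 samples, and 3 of the 23 had the lower mean. Gsta3, a glutathione transferase, had lowest, median and highest values of 8.35, 8.76 and 9.02 at 54.1 mg/kg, against 7.27, 7.60 and 8.20 in vehicle. Its groups were apart, and the difference was 1.08 ± 0.28 (adjusted p = 0.133). Mgst2, a microsomal glutathione transferase, differed by 0.30 ± 0.08 with groups apart (adjusted p = 0.111). Nqo1, a quinone reductase, differed by 0.60 ± 0.24 (adjusted p = 0.434). Among the alternatives, it passed only in a fit of the 12 samples alone (0.60 ± 0.10, adjusted p = 0.0359). None of the 22 measured genes of glutathione transferases and glutathione synthesis passed. Of these, 16 had the higher and 6 the lower mean, and the median difference was 0.12. Among 16 genes of heme synthesis and P450 partners none passed and the median difference was 0.02. Blvrb, biliverdin reductase B of that list, differed by 0.24 ± 0.06 with groups apart (adjusted p = 0.105).

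Start-site sequences were available for 15 of the 19 named genes that passed. Those of Hexim1 and Crem held none of the motifs searched, and those of Kyat1 and Nsdhl, not shown, held some. As examples, the sequences of 3 genes that rose and 1 that fell are shown. They were picked from those that hold a short motif of a receptor or stress factor named above. They come from the RefSeq table for build GRCr8 and run from 250 bases before to 50 bases after the annotated start, written 5′ to 3′ along the gene. Capitals mark the motif matches, on either strand. Ugt2b1 (chr14:21378632-21378931, plus strand) and Ces2c (chr1:270376951-270377250, plus strand) each hold 1 match to AGTTCA, read here as its reverse complement. Me1 (chr8:96540195-96540494, minus strand) holds 1 match to TGACNNNGC, the core of the antioxidant response element, and Gnmt (chr9:21752032-21752331, plus strand) holds 1 match each to AGGTCA and TGACNNNGC.
Ugt2b1: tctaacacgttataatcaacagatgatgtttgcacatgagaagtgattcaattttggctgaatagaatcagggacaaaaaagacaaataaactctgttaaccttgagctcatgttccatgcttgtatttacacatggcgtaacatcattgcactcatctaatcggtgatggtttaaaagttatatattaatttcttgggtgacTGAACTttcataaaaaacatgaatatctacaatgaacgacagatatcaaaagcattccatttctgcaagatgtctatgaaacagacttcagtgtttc
Ces2c: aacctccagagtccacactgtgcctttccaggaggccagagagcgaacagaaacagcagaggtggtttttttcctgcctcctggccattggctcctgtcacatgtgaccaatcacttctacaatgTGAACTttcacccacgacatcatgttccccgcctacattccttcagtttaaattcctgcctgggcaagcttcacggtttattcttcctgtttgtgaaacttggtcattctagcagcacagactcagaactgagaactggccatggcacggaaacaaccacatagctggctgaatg
Me1: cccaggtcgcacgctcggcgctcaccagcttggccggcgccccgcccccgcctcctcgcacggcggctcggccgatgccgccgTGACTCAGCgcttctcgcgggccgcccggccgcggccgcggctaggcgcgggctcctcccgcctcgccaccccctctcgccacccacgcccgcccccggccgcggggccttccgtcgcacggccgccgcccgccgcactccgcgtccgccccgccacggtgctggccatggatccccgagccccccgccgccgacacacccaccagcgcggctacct
Gnmt: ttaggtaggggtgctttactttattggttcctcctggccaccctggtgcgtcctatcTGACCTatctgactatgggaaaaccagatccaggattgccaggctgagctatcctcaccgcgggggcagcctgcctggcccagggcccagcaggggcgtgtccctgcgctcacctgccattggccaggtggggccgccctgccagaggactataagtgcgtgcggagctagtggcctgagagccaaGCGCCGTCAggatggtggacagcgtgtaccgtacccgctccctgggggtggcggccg

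Matches of this kind were common in all promoters. Of 33469 windows of that length, 14.5% held AGTTCA, one of the hexamers bound by CAR and PXR dimers, and 16.2% held AGGTCA, the general nuclear receptor hexamer. The antioxidant core TGACNNNGC was in 12.1%, the cAMP response core TGACGT in 7.94% and the E-box CACGTG in 6.42%. Both strands were searched, and a base could belong to matches of several motifs. Among the 15 genes, AGTTCA was in 2 (Ces2c and Ugt2b1), AGGTCA in 3 (Gnmt, Kyat1 and Nsdhl), TGACNNNGC in 3 (Gnmt, Me1 and Nsdhl), TGACGT in 1 (Saysd1) and CACGTG in 1 (Ccdc126). A match describes the letters and no more.

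The other rises were smaller. Kyat1, a kynurenine aminotransferase that also cleaves cysteine conjugates, rose by 0.32 ± 0.06 (adjusted p = 0.0194) and was the single gene of 11 in the kynurenine list that passed. Its lowest, median and highest values were 8.33, 8.53 and 8.62 at 54.1 mg/kg, against 8.10, 8.22 and 8.29 in vehicle. Replicate 5 was its lowest treated sample, still above vehicle, and without it the difference was 0.35 (adjusted p = 0.0128). The call was lost without 54.1 mg/kg replicate 2 or 4 or vehicle replicate 1, 5 or 6, in a fit of the 12 samples alone (adjusted p = 0.0672) and with arrays centred on their medians (adjusted p = 0.0512).

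Nsdhl, a sterol dehydrogenase that removes a methyl group on the way to cholesterol, rose by 0.32 ± 0.07 (adjusted p = 0.0381). Its values were 11.41, 11.57 and 11.68 at 54.1 mg/kg, against 11.07, 11.17 and 11.52 in vehicle, as lowest, median and highest, and vehicle replicate 3 overlapped with the treated samples. Of the 12 samples left out in turn, only the absence of 54.1 mg/kg replicate 1 or 5 or vehicle replicate 3 kept the call. It was lost in a fit of the 12 samples alone (adjusted p = 0.159) and with arrays centred on their medians (adjusted p = 0.0839). Its probe set 1392988_at differed by 0.23 and did not pass (adjusted p = 0.216). Of the 22 measured cholesterol synthesis genes it was the one that passed, while 19 had the higher mean, with a median difference of 0.17. Fdps, farnesyl diphosphate synthase, differed by 0.33 ± 0.08 (adjusted p = 0.141). Stard4, a sterol carrier, differed by -0.28 ± 0.12 (adjusted p = 0.486).

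The remaining rises came from genes without a shared pathway among the lists. Secisbp2l, a relative of the protein that reads selenocysteine codons, rose by 0.39 ± 0.07 (adjusted p = 0.0173; probe set 1385825_at 0.22, adjusted p = 0.567), with groups apart. Its call was lost without 54.1 mg/kg replicate 4 or vehicle replicate 5 and in a fit of the 12 samples alone (adjusted p = 0.0519). Dync2h1, the heavy chain of the dynein that moves cargo in cilia, rose by 0.34 ± 0.07 (adjusted p = 0.0381), and Saysd1 by 0.31 ± 0.06 (adjusted p = 0.0297). Both had groups apart. The Dync2h1 call held only without 54.1 mg/kg replicate 2, 3 or 5 or vehicle replicate 3, and that of Saysd1 only without 54.1 mg/kg replicate 2, 5 or 6 or vehicle replicate 2 or 4, among the 12 samples left out in turn. In a fit of the 12 samples alone both were lost (Dync2h1 adjusted p = 0.159, Saysd1 0.12), as they were with arrays centred on their medians (0.0656 and 0.0561). Dync2h1 was also lost after a further quantile normalization (adjusted p = 0.0789). Gpr15lg, known in mouse and human as a ligand of the receptor GPR15, rose by 0.29 ± 0.05 (adjusted p = 0.008) at the dim end of the array. It read 3.54, 3.57, 3.55, 3.52, 3.74 and 3.60 at 54.1 mg/kg, against 3.35, 3.41, 3.17, 3.29, 3.27 and 3.29 in vehicle. The highest value was that of replicate 5, the array whose dim probe sets read high. Without it the difference was 0.26 (adjusted p = 0.0168), and in a fit of the 12 samples alone Gpr15lg did not pass (adjusted p = 0.082).

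Of the falls, that of Hexim1 had the smallest p-value. Hexim1, which holds the elongation factor P-TEFb in an inactive complex, read 9.31, 9.46, 9.61, 9.49, 9.55 and 9.25 at 54.1 mg/kg, against 9.78, 9.81, 9.86, 10.01, 10.09 and 9.99 in vehicle. Every treated sample lay below every vehicle sample. It fell by 0.48 on the log2 scale (SE 0.07, adjusted p = 0.00219), or by 0.50 without replicate 5 (adjusted p = 0.00377). The 10 other measured genes of transcription elongation did not pass, among them Mepce, the enzyme that caps the RNA of that complex (difference -0.19, adjusted p = 0.582).

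Crem, a cAMP-responsive transcription factor gene whose short products repress other cAMP-responsive genes, had 6 probe sets, all with the lower mean at 54.1 mg/kg. On 2 of them it fell, and on 5 the groups were apart. Its probe set 1393550_at read 6.24, 6.52, 6.59, 6.44, 6.52 and 6.67 at 54.1 mg/kg, against 7.56, 6.90, 7.37, 7.51, 7.05 and 7.05 in vehicle (difference -0.74 ± 0.14, adjusted p = 0.0175). This call was lost without 54.1 mg/kg replicate 1 or 4 or vehicle replicate 1 or 4. The probe set 1369737_at differed by -0.53 ± 0.10 (adjusted p = 0.0175), a call lost without 54.1 mg/kg replicate 3 or 4 or vehicle replicate 1. The brightest, 1378925_at, which stands for the gene in the lists, differed by -0.38 ± 0.08 and did not pass (adjusted p = 0.0535). Of the 17 measured cAMP and immediate early genes, none passed with all samples, and the median difference was 0.04.

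Gnmt was the 1 of 19 measured methionine cycle and one-carbon genes that passed, and the median difference of that list was -0.05. Gnmt, glycine N-methyltransferase, uses up S-adenosylmethionine and is one of the most abundant methyltransferases of the hepatocyte. It read 11.68, 11.36, 11.55, 11.22, 11.20 and 11.58 at 54.1 mg/kg, against 12.001, 11.96, 11.94, 11.81, 11.94 and 11.82 in vehicle. The groups were apart, with the treated samples more scattered, and the difference was -0.48 ± 0.09 (adjusted p = 0.028). Replicate 5 was the lowest treated sample, and without it the difference of -0.43 ± 0.10 no longer passed (adjusted p = 0.0588). The call was also lost without 54.1 mg/kg replicate 2 or 4 or vehicle replicate 1, 3 or 5. Bhmt, which remethylates homocysteine, differed by -0.50 ± 0.15 (adjusted p = 0.214).

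Glud1, glutamate dehydrogenase, fell on probe set 1370200_at, where the difference was -0.26 ± 0.05 (adjusted p = 0.0323; 0.062 without replicate 5). Its lowest, median and highest values were 11.76, 11.90 and 11.98 at 54.1 mg/kg, against 12.10, 12.12 and 12.25 in vehicle. The brighter probe set 1387878_at differed by -0.22 ± 0.05 (adjusted p = 0.0535). On both, the groups were apart. The call on 1370200_at was kept only without 54.1 mg/kg replicate 1, 3 or 6 or vehicle replicate 4, and it was lost in a fit of the 12 samples alone (adjusted p = 0.111). Among 28 measured genes of the urea cycle and amino acid breakdown, 24 had the lower mean, with a median difference of -0.13, and none passed on the probe set that stands for the gene. The mean level of that list was 10.45 to 10.72 at 54.1 mg/kg and 10.66 to 10.84 in vehicle, and its lowest sample was replicate 5.

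Further falls were single genes. Tmx4, a thioredoxin-related membrane protein of the endoplasmic reticulum, differed by -0.53 ± 0.11 (adjusted p = 0.0454), and Ccdc126 by -0.68 ± 0.14 (adjusted p = 0.0385). A dim second probe set of Tmx4, 1397194_at, differed by 0.06 (adjusted p = 0.898). Crip2, a LIM-domain protein gene, differed by -0.39 ± 0.07 (adjusted p = 0.0175), and 1398454_at, a probe set without a listed gene that was singled out after its values were seen, by -0.37 ± 0.07 (adjusted p = 0.0175). In these 4 probe sets that passed, the groups were apart. Leaving out 1 sample kept the Tmx4 call only for 54.1 mg/kg replicate 5 or vehicle replicate 2, and the Ccdc126 call only for 54.1 mg/kg replicate 5 or 6 or vehicle replicate 2, 3 or 5. After a further quantile normalization both were lost (Tmx4 adjusted p = 0.078, Ccdc126 0.0729), and Tmx4 was lost with arrays centred on their medians (0.0512). Crip2 was lost without 54.1 mg/kg replicate 2 or 4 or vehicle replicate 1, and 1398454_at without 54.1 mg/kg replicate 1 or 3 or vehicle replicate 1. Itgb3, the integrin subunit of the platelet fibrinogen receptor, differed by -0.33 ± 0.07 (adjusted p = 0.0297). Replicate 5 was its lowest treated sample at 6.51, and without it the call was lost (difference -0.27, adjusted p = 0.0619). Besides, only the absence of 54.1 mg/kg replicate 1 or 3 or vehicle replicate 2 kept it, and it was lost in a fit of the 12 samples alone (adjusted p = 0.0926).

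Between the analyses with all 12 samples and without replicate 5, the calls differed in 2 sets. The 4 probe sets that passed with all samples and not without replicate 5 were those of Gnmt, Itgb3, Glud1 (1370200_at) and Me1 (1370067_at), with adjusted p of 0.0584 to 0.062 without it. The 16 that passed without it and not with all samples were 11 higher and 5 lower, 14 of them named, with adjusted p of 0.0535 to 0.217 when it was kept. In 11 of the 11 that were higher, replicate 5 was the lowest of the treated samples, and in 4 of the 5 that were lower it was the highest. These probe sets were picked by what leaving out replicate 5 does, so its place among the samples is a description only.

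**Figure D3:**
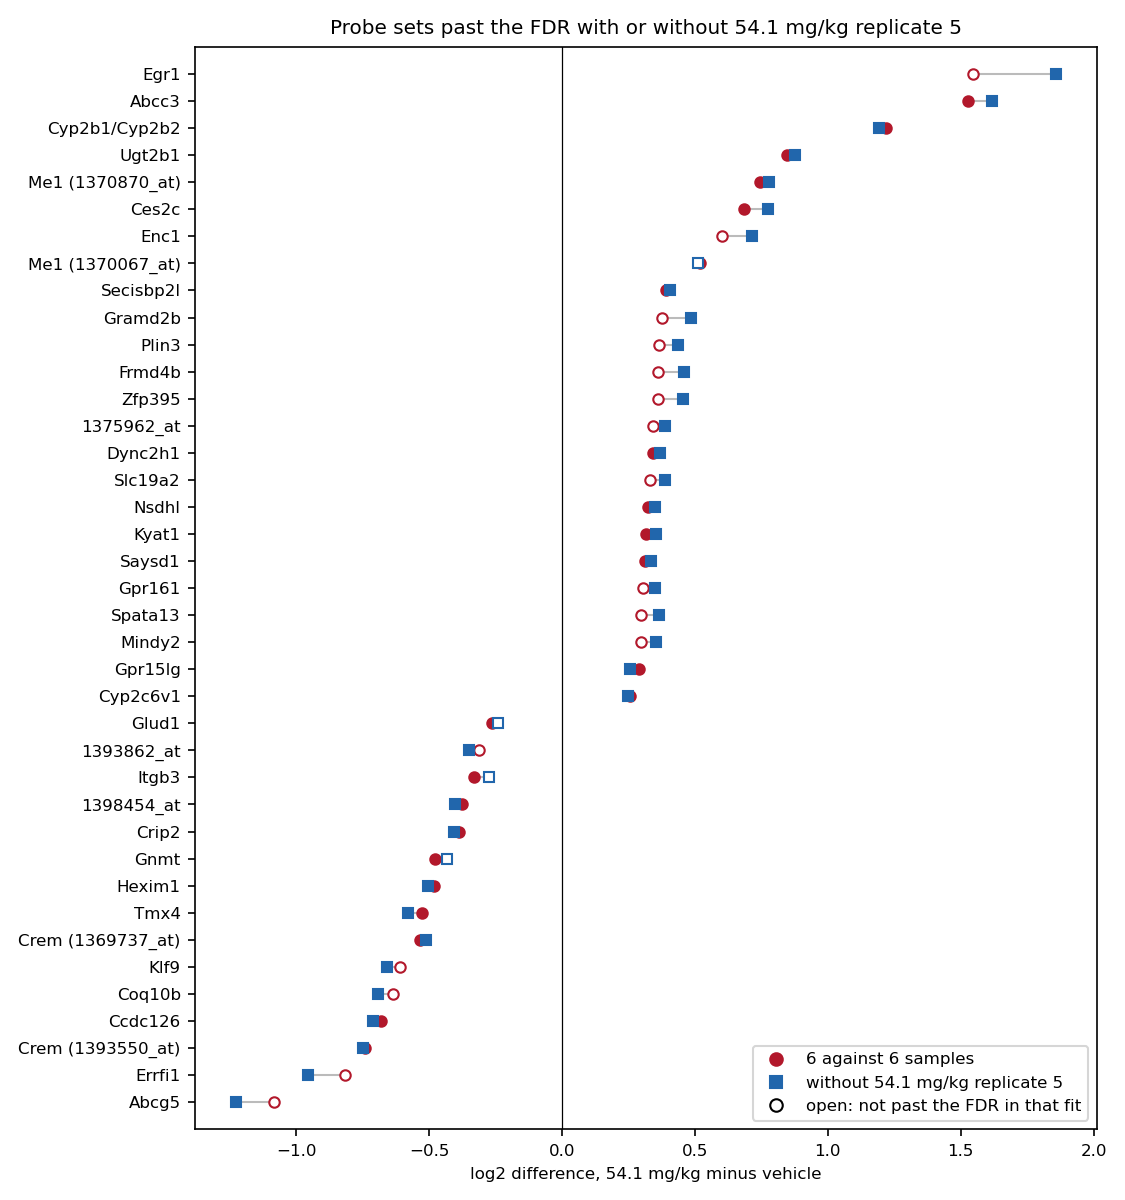
Log2 difference, 54.1 mg/kg minus vehicle, of the 39 probe sets that passed the FDR in either analysis, with all 6 samples (red circles) and without 54.1 mg/kg replicate 5 (blue squares); open symbols did not pass in that analysis. The differences keep their sign, and Egr1 moves most, between 1.55 and 1.86.

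Of the genes that passed without replicate 5 and not with all samples, Abcg5 had the largest fall. It encodes one partner of the pump that sends sterols into bile. It read 7.07, 7.47, 7.39, 7.05, 8.42 and 8.87 at 54.1 mg/kg, against 9.27, 9.04, 8.76, 8.32, 8.73 and 8.64 in vehicle. Replicates 1 to 4 lay below all vehicle samples, whereas replicates 5 and 6 lay inside the vehicle range. The difference was -1.22 ± 0.24 without replicate 5 (adjusted p = 0.0234) and -1.08 ± 0.23 with it (adjusted p = 0.0575). Abcg5 also passed without 54.1 mg/kg replicate 6 (adjusted p = 0.0065) and without vehicle replicate 4 (adjusted p = 0.0469).

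Abcg8, the other partner of the pump, read 5.64, 5.92, 5.45, 5.12, 6.60 and 7.52 at 54.1 mg/kg, with a vehicle range of 6.61 to 7.79. The same 4 samples were lowest. Its difference was -1.33 ± 0.31 with all samples (adjusted p = 0.0936) and -1.44 without replicate 5 (adjusted p = 0.0619). Abcg5 and Abcg8 lie head to head and are known to be transcribed from a shared promoter region.

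Klf9, a transcription factor gene induced by glucocorticoids and thyroid hormone, differed by -0.61 ± 0.13 with all samples (adjusted p = 0.0598) and fell by 0.66 without replicate 5 (adjusted p = 0.0369). It also passed without vehicle replicate 2 (adjusted p = 0.0415) or 5 (adjusted p = 0.0261). Its lowest, median and highest values were 9.53, 9.55 and 9.85 at 54.1 mg/kg, against 9.73, 10.27 and 10.52 in vehicle. Replicate 5 gave the 9.85 that entered the vehicle range. Errfi1, a feedback inhibitor of the EGF receptor and a glucocorticoid target, differed by -0.82 ± 0.20 with all samples (adjusted p = 0.108) and fell by 0.95 without replicate 5 (adjusted p = 0.0309).

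These 2 genes belong to the list of 15 measured glucocorticoid receptor targets, in which 14 had the lower mean at 54.1 mg/kg. The remaining 1 had the higher mean, by 0.71. Over all named genes, 53.6% had the higher mean. The median difference of the list was -0.24 with all samples and -0.28 without replicate 5, the lowest of the 51 lists. None passed with all samples, and 2 did without replicate 5. The list's mean level was 9.04 to 9.34 at 54.1 mg/kg and 9.15 to 9.71 in vehicle, so the groups overlapped, and the highest treated sample was replicate 5. Nr3c1, the gene of the receptor itself, differed by -0.24 ± 0.08 (adjusted p = 0.327), and Tsc22d3, a widely used glucocorticoid response gene, by -0.36 ± 0.14 (adjusted p = 0.41). The times of day at which tissue was taken are not given in the labels, and their part was not tested.

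Coq10b, a coenzyme Q binding protein gene, fell by 0.69 without replicate 5 (adjusted p = 0.0309), and it also passed without vehicle replicate 2 (adjusted p = 0.0281). Rises that passed without replicate 5 and not with all samples included Plin3, a lipid droplet coat protein (difference 0.44, adjusted p = 0.0168), Enc1 (0.71, adjusted p = 0.0234) and Slc19a2, a thiamine carrier (0.39, adjusted p = 0.0309). Gpr161, a receptor of the primary cilium, differed by 0.35 (adjusted p = 0.0234), Zfp395 by 0.45 (adjusted p = 0.0234), Mindy2, a deubiquitinase, by 0.35 (adjusted p = 0.0309) and Gramd2b by 0.49 (adjusted p = 0.0309). Without replicate 5, the other probe sets of Mindy2 differed by 0.05 to 0.32 and those of Gramd2b by 0.29 and 0.35. None of these passed (smallest adjusted p = 0.178). With all samples, Enc1 1384687_at, at a mean level of 5.90 at 54.1 mg/kg, differed by 0.63 (adjusted p = 0.289). Other probe sets of Enc1 and Gpr161 were dim, with mean levels of 2.65 to 3.29 at 54.1 mg/kg. They differed by -0.0058 (Enc1 1382710_at), -0.02 (Enc1 1390054_at) and 0.04 (Gpr161 1391025_at). Spata13 (0.37) and Frmd4b (0.46), named after their values were seen, passed as well.

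Egr1, an immediate early transcription factor gene, read 9.89, 9.95, 9.76, 8.995, 7.91 and 10.26 at 54.1 mg/kg, against 7.41, 9.06, 6.96, 7.71, 8.17 and 8.17 in vehicle. Both groups were scattered and overlapped: replicates 4 and 5 lay below vehicle replicate 2, while the 4 other treated samples lay above all vehicle samples. The difference was 1.55 ± 0.41 with all samples (adjusted p = 0.155) and 1.86 without replicate 5 (adjusted p = 0.0452). At the other doses Egr1 differed from vehicle by 0.96, 1.17 and 1.34 at the 3 lower doses in ascending order and by 0.42 at 541 mg/kg, none past the FDR. Between 54.1 and 5.41 mg/kg the Egr1 difference was 0.21 ± 0.41 (limma, unadjusted p = 0.612).

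The 54.1 mg/kg samples were also set against those of the next lower and the next higher dose. Against 5.41 mg/kg, 0 probe sets passed (0.0%). The smallest adjusted p from limma was 0.532, and 1348 probe sets, 4.34% of those tested, had an unadjusted p under 0.05. For the 23 probe sets chosen against vehicle, the difference from 5.41 mg/kg had the same sign in 23 and an unadjusted p under 0.05 in 21, but both contrasts use the same 54.1 mg/kg samples.

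Against 541 mg/kg, 1 probe set passed (0.00322%), that of Ces2c, which was lower at 54.1 mg/kg by 0.82 (adjusted p = 0.0294). Without replicate 5, 0 passed. Of the 23 probe sets, 11 had an unadjusted p from limma under 0.05 for this contrast. The 23 were chosen by the values of the same 54.1 mg/kg samples, and the share over all probe sets was not counted. Nothing is therefore read from that count.

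Values at the other doses were set beside these. For 5 of the 13 probe sets that rose, the difference from vehicle was larger still at 541 mg/kg, and for 0 of the 10 that fell. The comparisons share the vehicle samples. Doses ran upward, with 0.05 and 0.54 mg/kg at the low end, then 5.41, followed by 54.1 and 541 mg/kg. In that order Abcc3 differed from vehicle by 0.29, 0.39, 0.53, 1.53 and 2.14, and Ces2c by -0.10, 0.11, 0.07, 0.68 and 1.501. Ugt2b1 differed by 0.06, -0.03, 0.26, 0.85 and 1.01. In these 3 genes the largest step between neighbouring doses lay above 5.41 mg/kg.

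Hexim1 differed by -0.18, -0.20, -0.23, -0.48 and -0.26 in that order, so that its lowest mean was at 54.1 mg/kg, and it did not pass at 541 mg/kg (adjusted p = 0.147). The difference between 54.1 and 541 mg/kg for Hexim1 was -0.22 (adjusted p = 0.893). Gnmt differed by 0.05, -0.03, -0.04, -0.48 and -0.47. Its means changed most between 5.41 and 54.1 mg/kg, but no probe set passed the test between those doses. Crem (1393550_at) was already below vehicle at the lowest dose, with differences of -0.43, -0.30, -0.36, -0.74 and -0.63. Of the 23 probe sets, 8 also passed at 541 mg/kg, where 48 of all 31042 did (0.155%). The 23 were chosen against the same vehicle samples, so this overlap is a description only.

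**Figure D4:**
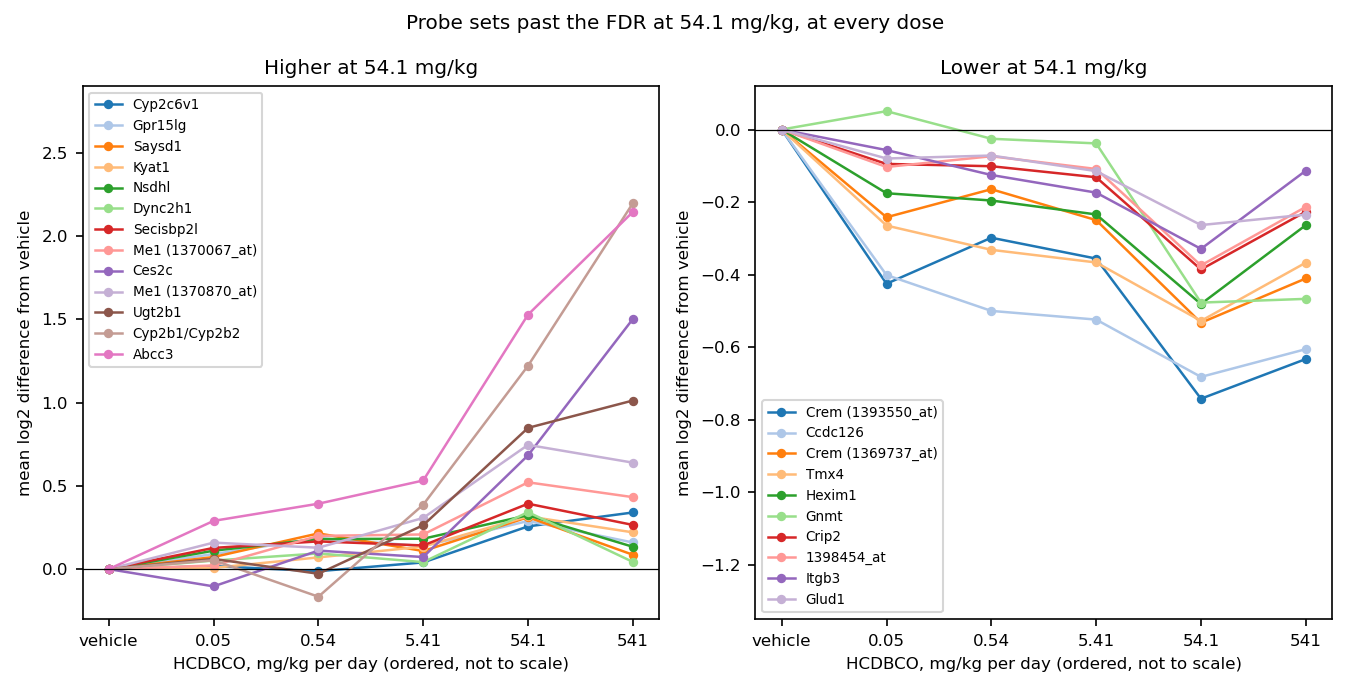
Mean log2 difference from vehicle of the 23 probe sets past the FDR at 54.1 mg/kg, at vehicle and 5 doses in order (axis not to scale), with the 13 higher on the left and the 10 lower on the right. Abcc3, the Cyp2b1/Cyp2b2 probe set and Ces2c go on to larger differences at 541 mg/kg, while none of the 10 lower ones does. The probe sets were chosen by their values at 54.1 mg/kg, which favours larger differences at that dose.

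Most other gene groups gave no call. In all, 16 of the 51 lists held a member past the FDR and 35 held none. The 16 lists rested on 13 genes, as some genes stand in several lists. Over all 14217 named genes, 17 passed (0.12%). The lists were written with earlier results of these data known, so these counts are a description only. The 7 measured AhR targets gave none, with 4 higher and 3 lower means and a median of 0.04. Cyp1a1, the P450 most used as a sign of AhR activation, had groups that did not overlap at a low level (difference 0.41 ± 0.14, adjusted p = 0.312). Tiparp of the same list went the other way (difference -0.37 ± 0.13, adjusted p = 0.327). Cyp1a2 differed by 0.04 (adjusted p = 0.877). The 27 PPAR-alpha targets gave none, with a median of 0.04, and Cyp4a1, a fatty acid hydroxylase, differed by 0.11 (adjusted p = 0.893).

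Among lipid genes, Cyp7a1, which sets the rate at which bile acids are made, differed by 1.23 ± 0.42 (adjusted p = 0.333), with a lowest treated value of 10.43 beside a highest vehicle value of 10.46. Scd, a stearoyl-CoA desaturase, differed by -1.15 ± 0.39 (adjusted p = 0.327), and Pnpla3, a lipid hydrolase gene, by 1.06 ± 0.29 (adjusted p = 0.183) with groups apart. The 23 cell cycle genes had a median of -0.07 and no call. The proliferation marker Mki67 differed by 0.08 ± 0.27 (adjusted p = 0.961), a value whose sign turned without vehicle replicate 1 or 4. Cdkn1a, a p53 target, differed by -0.40 ± 0.12 (adjusted p = 0.231), and Fgf21, a stress hormone of the liver, by -0.39 ± 0.64 (adjusted p = 0.906; the sign turned without vehicle replicate 4). The 30 proteasome subunits had the higher mean in 26, with a median of 0.07 and no call.

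Rat liver differs by sex in many P450 and sulfotransferase genes. Of 11 measured genes that are higher in female rats, 10 had the higher mean at 54.1 mg/kg, with a median of 0.24, the highest of all lists. Abcc3 was the one that passed. Cyp2c12, a P450 of female rat liver, differed by 0.38 ± 0.19 with groups apart (adjusted p = 0.532), and Sult2a6, a sulfotransferase, by 0.62 ± 0.21 (adjusted p = 0.304). The 11 genes higher in male rats had a median of -0.07 and no call. The list of genes higher in female liver shares Abcc3 with the CAR and PXR list.

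Markers of other cells gave 1 call. Of the 14 lists of cell types and liver zones, 13 had no member past the FDR, and the medians lay between -0.09 and 0.13. The platelet list held the remaining call, Itgb3, while its other defining genes Pf4 (0.15) and Ppbp (0.07) did not pass. Kupffer cell markers had a median of 0.0042 and mean levels of 7.91 to 8.78 at 54.1 mg/kg and 7.90 to 8.68 in vehicle. Stellate cell markers had a median of -0.09 and mean levels of 7.12 to 7.40 at 54.1 mg/kg and 7.23 to 7.60 in vehicle. In that list Lox, which crosslinks collagen, had the widest difference, -1.56 ± 0.45 (adjusted p = 0.205). Its lowest, median and highest values were 6.44, 6.78 and 7.02 at 54.1 mg/kg, against 7.05, 8.47 and 9.29 in vehicle, so that the groups were apart by a narrow gap.

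**Figure D5:**
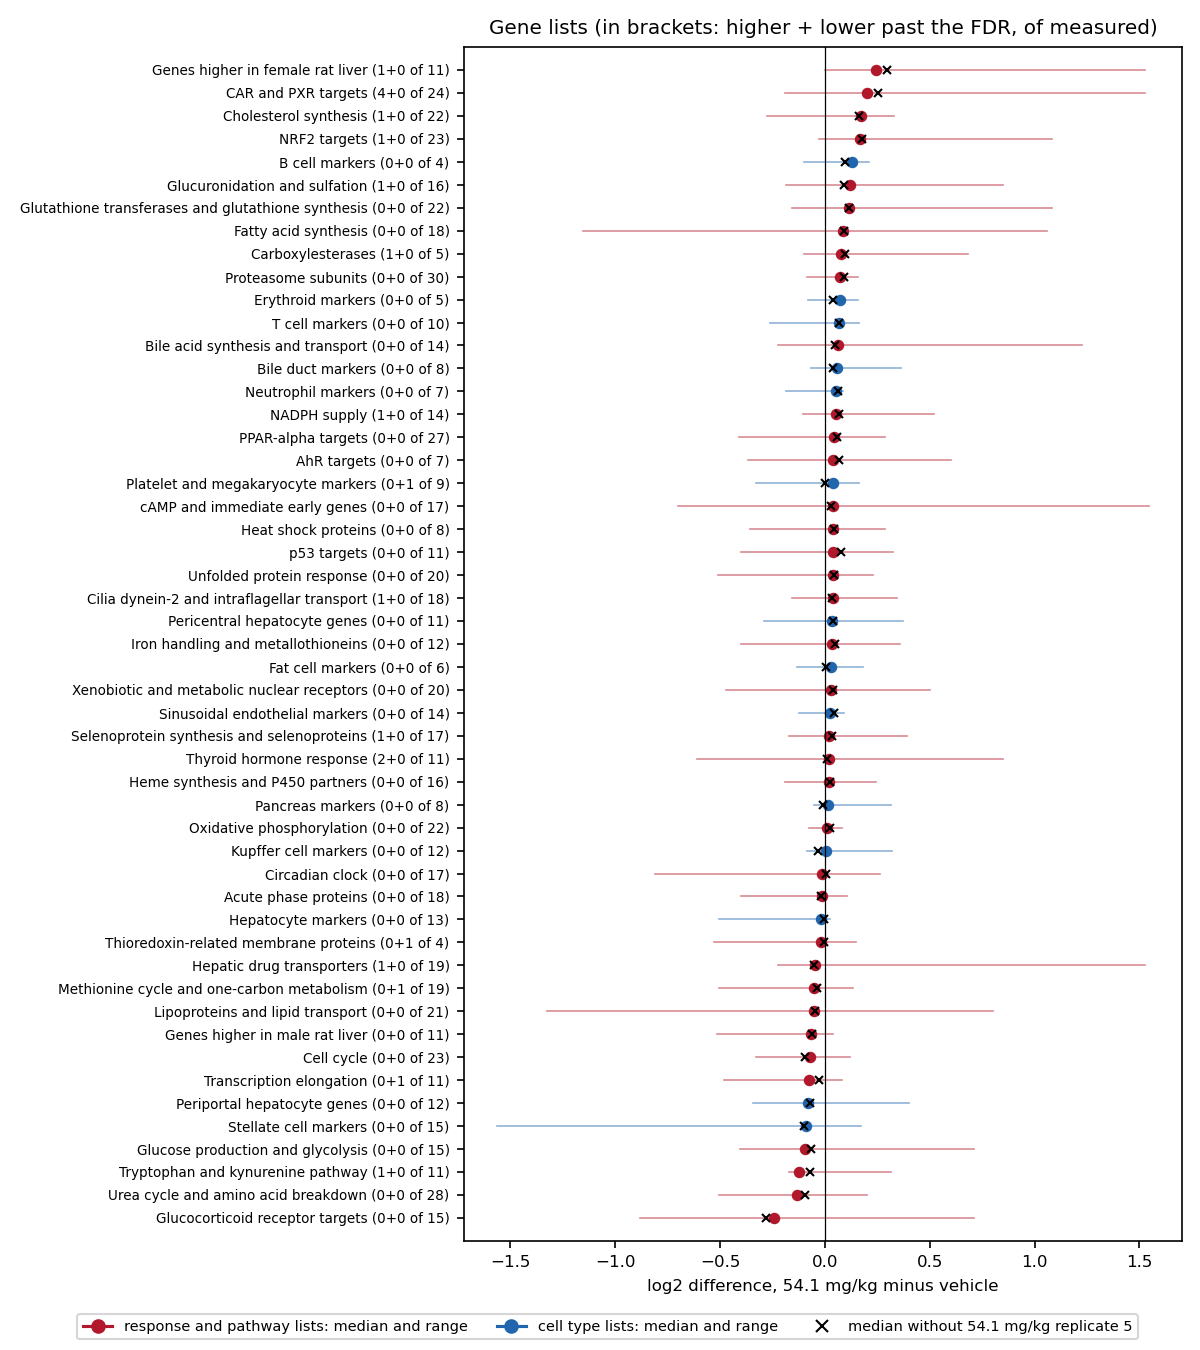
Log2 difference, 54.1 mg/kg minus vehicle, of the 51 gene lists, as the median (circle) and range (line) of the measured members, 1 probe set per gene, with the median without 54.1 mg/kg replicate 5 as a cross. The medians run between -0.24 for glucocorticoid receptor targets and 0.24 for genes higher in female rat liver.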

How the data were processed

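Liver RNA of 36 samples in 6 groups of 6 was measured on 1-colour Affymetrix arrays. The authors deposited log2 values, 1 per probe set and array, made with RMA and the affy package, per the submitters' processing notes; versions and the annotation used are not given in the sources used here. The base of the logarithm was taken from RMA, since raw intensities were not used here. Of 31099 probe sets, 57 controls were left out. Gene names came from the platform annotation: 20826 probe sets had 1 symbol, 436 had several and 9780 none listed. Entrez IDs of 20758 were in the RefSeq table of GRCr8, and no symbol changed.

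Groups came from the sample titles. The design text sets vehicle against each dose with R/maanova at an FDR of 5%; here limma 3.58.1 in R 4.3.3 (lmFit, eBayes) was fitted to 6 group means over all 36 samples, with no covariate and no filter, and a second time without 54.1 mg/kg replicate 5. The contrasts 54.1 against 5.41 and against 541 mg/kg were taken in the same fits. The procedure was tested on simulated data. Replicate numbers did not pair the samples: 0 of 6 same-number correlations of deviations between the 2 groups exceeded 0.1 (range -0.09 to 0.07). The labels name no batch.

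Genes named were those past the FDR, up to 10 that passed only without replicate 5, up to 4 per list with the smallest p, and a few fixed genes; others are marked. In the lists a gene was represented by the probe set with the highest mean over all samples. The 51 lists held 767 genes, of which 671 were measured. The comparison, the lists and the rule were chosen with earlier results of these data known. Alternatives were the 12 samples alone, each sample left out, replicate number as a block, array weights, a filter at a mean log2 value of 6, median centring, a further quantile normalization, and trend and robust variance settings. Python 3.11.15 with numpy 2.4.6, pandas 2.3.3, scipy 1.17.1 and matplotlib 3.10.9 was used for tables, permutation tests and plots.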

Additional observations from a re-analysis of the deposited data

Results flagged for a closer look

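In 12 of 114 groups of 6 samples, 1 sample lay farther from its neighbours than Dixon's critical value allows, where chance gives about 1 in 20. Since 54.1 mg/kg replicate 5 was known to stand apart and several probe sets were chosen for what its absence does, nothing is read from that number. On that array the lower quartile was 3.79 and the median 5.16, each the highest of its group, and the upper quartile of 6.94 was the lowest. Its values were the lowest of the group for Mindy2 (6.33), Zfp395 (6.97) and Frmd4b (3.96) and the highest for Gpr15lg (3.74). The first 3 of these genes passed the FDR without the array and not with all samples, which is how they came to be examined, and Gpr15lg passed with and without it. At 54.1 mg/kg, replicate 1 was low for the Crem probe set 1378925_at (9.72).

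In the vehicle group, replicate 4 was low for Crip2 (10.53) and for Nr1i3 (6.96), replicate 3 for 1398454_at (6.20) and replicate 5 for Slc19a2 (10.38).

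Ces2c was the one probe set whose level differed between the 54.1 and 541 mg/kg groups past the FDR, lower at 54.1 mg/kg by a log2 difference of -0.82 (limma adjusted p = 0.0294).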

How the results depend on the processing

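The count of 23 probe sets past the FDR ranged between 5 and 36 when each of the 12 samples was left out in turn. It was 43 (11 higher, 32 lower; 12 of the 23 kept) in a fit of the 12 samples alone, 64 (34 and 30; 23 kept) with array weights, in which replicate 5 at 54.1 mg/kg had a weight of 0.390, and 40 (15 and 25; 20 kept) with the filter on dim probe sets, which tests fewer. It was 17 with arrays centred on their medians (7 and 10; 16 kept), 23 after a further quantile normalization (20 kept) and 28 with trend and robust settings (23 kept). With the replicate number as a block it was 28 (14 and 14; 22 kept, without Dync2h1 at an adjusted p of 0.0525); the numbers did not pair the samples, and no sample correlated best with its own number. The 13 list genes past the FDR became 21 with array weights and 8 with centring. The single call between 54.1 and 541 mg/kg became 0 without replicate 5. The count of 35 without replicate 5 became 78 in a fit of the compared samples alone and 39 after quantile normalization of the other 35 arrays, both chosen after seeing the data. Of 52 single probe sets followed, 2 changed sign in some setting, neither past the FDR. Leaving out single samples moved Mki67 between -0.072 and 0.23, with -0.023 without vehicle replicate 1 and the lowest value without vehicle replicate 4. It moved Fgf21 between -0.69 without 54.1 mg/kg replicate 5 and 0.14 without vehicle replicate 4. Beyond what a setting tests by its construction, the cause was not tested. A median standard error of 0.0799 on the log2 scale limits the differences that 6 arrays per group can show.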
